A study of Mus musculus with 8 samples.

Results

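The genes described here encode the subunits of the proteasome, the protein-degrading machine of the cell, together with its activators, an inhibitor protein and the chaperones that assemble it. They were chosen by name: every gene whose symbol on the array began with Psma, Psmb, Psmc, Psmd, Psme, Psmf or Psmg, leaving out the interferon-inducible catalytic subunits Psmb8, Psmb9 and Psmb10. The array carried 46 such genes. Of these, 45 had a probe well above background on at least 2 arrays and were analysed among 20079 genes that met the same condition. Psmb11, the catalytic subunit found in the thymus, was above background on no array. All 45 were above background on all 8 arrays, so none entered through one condition only. One of them, Psmc3ip, belongs by symbol only: its product is a cofactor of meiotic recombination.

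The measurements came from RAW264.7, a mouse macrophage cell line, on 8 single-colour (Cy3) Agilent arrays, 1 per condition. One arm of 4 cultures was pretreated with 1 mM melatonin for 1 h, and the other arm of 4 received no melatonin. Within each arm a culture was then given lipopolysaccharide (LPS), the E. coli cell wall component that activates macrophages, at 100 ng/ml for 1, 3 or 5 h, and 1 culture per arm was left without LPS (0 h). In the groups used here melatonin arrays are set against the arrays without melatonin, and LPS arrays against those without LPS. The treatment field gave an LPS time 1 step later than the title for 3 of the 4 melatonin samples and none for melatonin at 5 h, so the groups follow the titles, descriptions and source names. All 8 arrays lay on 1 slide, with an arm in each slide row and an LPS time in each slide column. Arm and row, and LPS time, slide column and time in culture, therefore cannot be told apart.

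Per array, 46.96% to 52.98% of the probes were well above background and none was saturated. The 75th percentile signal ranged from 659 to 846. Of 10 macrophage markers, 9 were above background on all 8 arrays and Mrc1 on none. The T cell markers Cd3e and Cd3d were also above background on all 8 arrays, whereas Cd8a was on none. No B cell, fibroblast or epithelial marker was above background on all 8 arrays.

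The proteasome degrades proteins that carry ubiquitin chains. Its 20S core is a barrel of alpha and beta rings in which 3 kinds of beta subunit cut peptide bonds, and the 19S regulatory particle caps the barrel, recognises ubiquitin, removes it and threads the substrate in. In macrophages the same machine degrades the inhibitors of NF-kB after LPS and makes peptides for antigen presentation, and some subunits can be exchanged for interferon-inducible forms. Cells are known to raise many subunit genes together through the transcription factor NRF1 (Nfe2l1), which binds antioxidant response elements in their promoters.

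Each level below is the log2 of the processed signal minus the 75th percentile of its array, called the scaled log2 level. It compares arrays for 1 gene and does not compare genes. Changes come from 1 limma fit over the 8 arrays with terms for LPS time and melatonin (3 residual degrees of freedom), and a gene was called at an adjusted p under 0.05 over all 20079 genes. Nothing in the labels repeats a condition, so a p-value reflects only how far these 8 arrays scatter about the fit. The members are mostly bright genes: 27 of 45 lay in the brightest 10% of genes by mean level. This touches every result below, because that brightest 10% had median changes of 0.16 at 3 h of LPS, 0.23 at 5 h and -0.19 with melatonin (log2), but -0.06, -0.05 and 0.02 after quantile normalization between arrays. Counts under quantile normalization and in the authors' deposited table, which is quantile normalized, are therefore given beside the 75th percentile counts. Which scaling is nearer the amount of RNA per cell was not tested.

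Promoters of 5 members are shown. Psma6 and Psmd8 are shown because they changed most under LPS. Psmb5, Psmb6 and Psmd12 are shown for their letters and not for their changes. They are 3 of the 5 members whose promoters held the letters of an antioxidant response element. The sequences are the 250 bases before the transcription start in RefSeq (GRCm38.p6), written 5′ to 3′ on the strand of the gene. Capitals mark antioxidant response elements (TGACNNNGC) in Psmb5, Psmb6 and Psmd12 and CCAAT boxes (CCAAT) in Psma6, on either strand. The windows are chr14:54617996-54618245 for Psmb5 and chr7:29180674-29180923 for Psmd8, both on the minus strand. On the plus strand they are chr11:70525107-70525356 for Psmb6, chr11:107479278-107479527 for Psmd12 and chr12:55383972-55384221 for Psma6.
Psmb5: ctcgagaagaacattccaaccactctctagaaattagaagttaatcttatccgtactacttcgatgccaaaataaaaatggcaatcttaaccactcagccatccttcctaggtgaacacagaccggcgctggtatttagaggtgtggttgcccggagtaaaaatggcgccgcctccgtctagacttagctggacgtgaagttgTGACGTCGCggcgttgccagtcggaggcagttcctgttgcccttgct
Psmb6: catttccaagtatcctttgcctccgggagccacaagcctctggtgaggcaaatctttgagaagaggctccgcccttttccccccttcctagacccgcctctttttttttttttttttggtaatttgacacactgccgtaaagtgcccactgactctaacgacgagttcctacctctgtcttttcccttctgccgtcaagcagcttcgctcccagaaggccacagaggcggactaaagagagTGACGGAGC
Psmd12: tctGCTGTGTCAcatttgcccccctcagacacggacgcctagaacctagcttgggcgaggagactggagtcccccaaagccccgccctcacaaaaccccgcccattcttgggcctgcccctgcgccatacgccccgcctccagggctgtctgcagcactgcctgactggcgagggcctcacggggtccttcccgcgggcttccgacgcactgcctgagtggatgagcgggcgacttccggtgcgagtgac
Psma6: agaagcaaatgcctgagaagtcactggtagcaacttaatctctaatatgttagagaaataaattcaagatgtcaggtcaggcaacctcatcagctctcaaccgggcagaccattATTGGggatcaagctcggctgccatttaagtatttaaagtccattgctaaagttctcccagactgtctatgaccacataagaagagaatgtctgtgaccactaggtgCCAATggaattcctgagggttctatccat
Psmd8: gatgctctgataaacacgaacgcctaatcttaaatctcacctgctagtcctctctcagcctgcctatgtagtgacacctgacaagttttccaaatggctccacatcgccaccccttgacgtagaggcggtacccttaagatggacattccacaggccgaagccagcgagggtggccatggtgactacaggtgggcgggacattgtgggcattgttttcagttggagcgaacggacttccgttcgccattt
The Psmb5 element lay at -47 to -39 and that of Psmb6 at -9 to -1 on the strand of the gene, counted back from the start. That of Psmd12 lay at -247 to -239 on the opposite strand. Psma6 held a CCAAT box at -136 to -132 on the opposite strand and another at -29 to -25 on its own, and Psmd8 held none of the motifs searched.

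RefSeq promoters were found for 37 of the 45 members, in 39 windows, and were set against 32851 promoters of the same length. The antioxidant response element was in 5 of 39 member windows (12.8%) and in 10.2% of all promoters. Its carriers were Psmb5, Psmb6, Psmc6, Psmd12 and Psmd9. The CCAAT box was in 13 member windows (33.3%) and in 33.8% of all promoters. The interferon-stimulated response element was in 3 (7.69%), those of Psmb3, Psmd4 and Psmd9, and in 2.98% of all promoters. The E-box CACGTG was in 3 (7.69%) and in 6.02% of all. The NF-kB motif with any base at its middle position was in 0 of 39 and in 0.356% of all promoters, and its strict form, which is an instance of it, in 0 of 39 and in 0.14%. Both strands were searched. These shares describe letters in short windows and not binding.

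With 75th percentile scaling, levels of most proteasome genes were higher after LPS. At 3 h, 26 of the 45 rose and 3 fell, where 33.7% of all genes were called (18.6% rose and 15.1% fell). At 5 h, 33 rose and 2 fell, where 44.2% of all genes were called (24.9% rose and 19.4% fell). The median change of the members was 0.29 at 3 h and 0.42 at 5 h, against 0.06 and 0.08 for all genes (log2). With quantile normalization 8 rose and 5 fell at 3 h, where 32.3% of all genes were called (13.7% rose and 18.6% fell). The members' share called in either direction was thus no higher than that of all genes. Their share of rises was slightly higher and their share of falls lower. At 5 h, 19 rose and 3 fell, where 41.4% were called (17.9% rose and 23.5% fell). The median changes of the members with quantile normalization were 0.09 at 3 h and 0.14 at 5 h. In the authors' deposited table, fitted in the same way, 9 rose and 5 fell at 3 h (31.8% of all genes called), and 21 rose and 3 fell at 5 h (40.9% called). The count at 3 h also depended on single arrays: 10 rose without the array of no melatonin at 0 h, 15 without no melatonin at 3 h and 17 without melatonin at 0 h. Of the 29 members called at 3 h, 19 lost their call when some single array was left out, as did 8 of the 35 called at 5 h. None of the 3 falls at 3 h was called without the no-melatonin array of 0, 1 or 3 h or the melatonin array of 1 h.

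**Figure D1:**
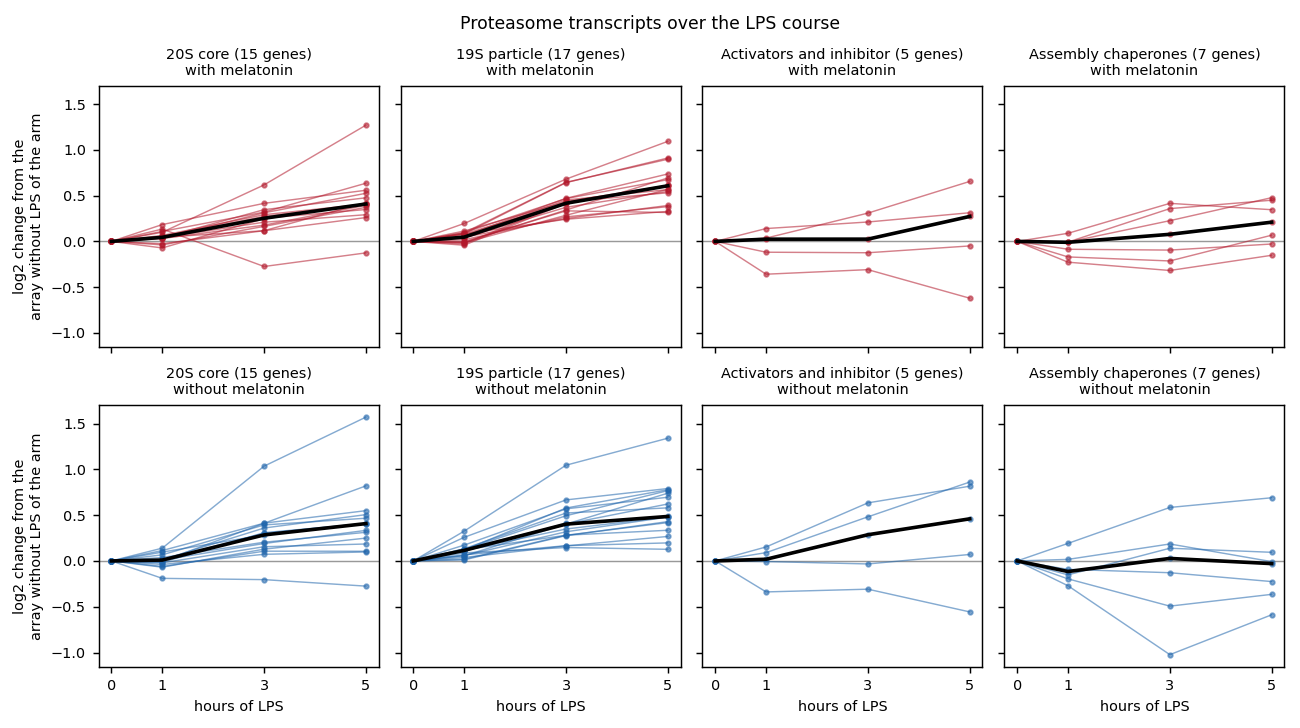
Change in scaled log2 level from the 0 h array of the same arm (y axis) over the hours of LPS (x axis), with the melatonin arm in the upper row and the arm without melatonin in the lower, a thin line per gene and a thick black line for the median of each class, from 75th percentile scaling. The 19S genes had the highest medians in both arms at 5 h, 0.61 with melatonin and 0.49 without. With quantile normalization the median fitted change at 5 h was 0.29 for the 19S genes and 0.14 for all members.

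On the scaled log2 levels the larger step lay between 1 and 3 h. The median change of the members was 0.04 at 1 h, 0.25 from 1 to 3 h and 0.14 from 3 to 5 h. With quantile normalization these medians were -0.03, 0.09 and 0.07, and in the deposited table -0.02, 0.10 and 0.08. Under those scalings the steps after 1 h were therefore close in size. At 1 h, limma called 0 members, where 1.96% of all genes were called (1.67% rose and 0.284% fell), and 4 had an unadjusted p under 0.05: Psmc1, Psmd8, Psmb4 and Psmf1. Such a p was found for 14.9% of all genes at 1 h. Between 1 and 3 h, 19 members rose and 0 fell, where 15.2% of all genes were called (8.4% rose and 6.81% fell), and 4 rose and 1 fell with quantile normalization, where 13.9% were called (5.92% rose and 7.97% fell). No member rose in that step without no melatonin at 1 h, no melatonin at 3 h or melatonin at 1 h, and 8 rose without melatonin at 3 h. Between 3 and 5 h, limma called 0 members, where 0.0946% of all genes were called (0.0349% rose and 0.0598% fell), and 15 members, against 14.6% of all genes, had an unadjusted p under 0.05. Scaled log2 levels of 21 members rose at each successive time in both arms, and 30 of 45 were highest on the array of 5 h without melatonin. Neither pattern was counted over all genes, and the first was not counted with quantile normalization. The highest array depended on the scaling. With quantile normalization Psma2, Psma3, Psma4, Psma6, Psmb2, Psmb6, Psmd8, Psmd10, Psmd14, Psme1, Psme2b and Psme3 were still highest at 5 h without melatonin. Of the 30, Psmb1, Psmb3, Psmb4, Psmb5, Psmb7, Psmc1, Psmc2, Psmc4, Psmc6, Psmd1, Psmd3, Psmd6, Psmd11 and Psmd12 were highest at 5 h with melatonin. Psma5, Psma7, Psmd2 and Psme4 were highest at 0 or 3 h.

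The core alpha ring, which forms the gate and outer wall of the barrel, rose in 7 of 8 genes at 5 h (median change 0.38), and in 2 of 8 with quantile normalization. Psma6, the alpha1 subunit, changed most of all members. Its scaled log2 levels with melatonin were 5.59, 5.69, 6.21 and 6.86 at 0, 1, 3 and 5 h, and without melatonin they were 6.0, 6.14, 7.04 and 7.57. In both arms the arrays of 3 and 5 h lay above those of 0 and 1 h. The fitted change was 0.83 ± 0.11 at 3 h (SE, limma adjusted p = 0.00422) and 1.42 ± 0.11 at 5 h, or 2.68-fold (adjusted p = 0.000587). With quantile normalization the change at 5 h was 1.09. Its probe lies at chr12:56519322-56519381 (mm9), and a separate probe of the gene gave 1.45 at 5 h against 1.42 for this one.

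The other alpha genes moved less. Psma3 (alpha7) changed by 0.46 ± 0.05 and Psma4 (alpha3) by 0.48 ± 0.05 at 5 h (SE, limma adjusted p = 0.00139 and 0.00169), and with quantile normalization Psma3 changed by 0.14 (adjusted p = 0.0328) and the call of Psma4 was lost (0.14, adjusted p = 0.0582). Psma2 (alpha2) changed by 0.41 ± 0.04 and Psma5 (alpha5) by 0.35 ± 0.05. With quantile normalization these became 0.10 (adjusted p = 0.105) and 0.02 (adjusted p = 0.799). Psma7 (alpha4) and Psma1 (alpha6) had the smallest rises, 0.27 and 0.23, and with quantile normalization the changes were -0.07 and -0.09. Psma1 lost its call without any 1 of the 8 arrays. Psma8, the testis-specific alpha4 form, was not called at any time, with levels of -2.34 to -1.82 and a change of -0.20 at 5 h (adjusted p = 0.298).

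**Figure D2:**
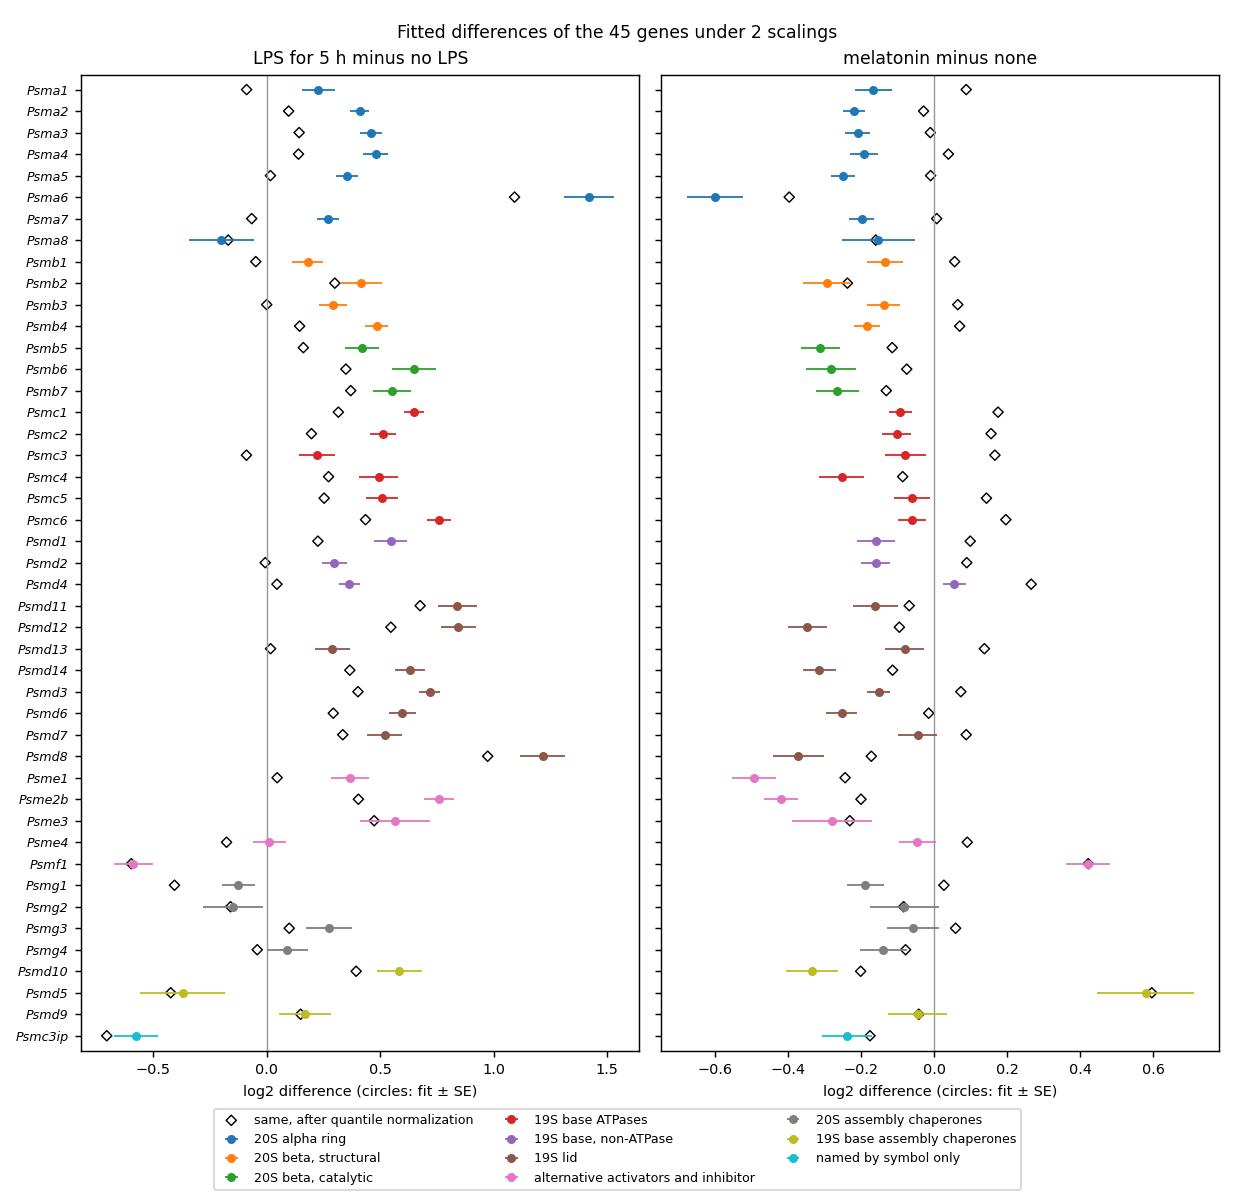
Fitted log2 changes of the 45 genes after 5 h of LPS and with melatonin, coloured by class (circles with SE, 75th percentile scaling), and the same differences after quantile normalization (open diamonds). Most circles lie above 0 for LPS and below 0 for melatonin, while with quantile normalization 31 of 45 lay above 0 for LPS and 22 of 45 for melatonin.

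The 3 catalytic beta subunits of the constitutive proteasome rose at 3 and 5 h. None of the 3 was called at 3 h with quantile normalization, in the deposited table or without the no-melatonin array of 0 or 3 h or the melatonin array of 0 h. At 5 h Psmb6 and Psmb7 kept their calls with quantile normalization (0.35 and 0.37). Psmb6 (beta1, which cuts after acidic residues) had scaled log2 levels of 6.11, 6.15, 6.46 and 6.59 with melatonin and 6.30, 6.30, 6.72 and 7.12 without, at 0, 1, 3 and 5 h. Its arrays of 3 and 5 h lay above those of 0 and 1 h in both arms. The change at 5 h was 0.65 ± 0.10 (SE, limma adjusted p = 0.00401). Psmb7 (beta2, the trypsin-like site) had levels of 2.80, 2.91, 3.12 and 3.44 with melatonin and 3.1, 3.17, 3.49 and 3.57 without, and changed by 0.55 ± 0.08 at 5 h (adjusted p = 0.0044). Psmb5 (beta5, the chymotrypsin-like site and target of proteasome inhibitor drugs) changed least. Its levels were 4.02, 4.05, 4.33 and 4.54 with melatonin and 4.41, 4.45, 4.62 and 4.72 without, so that each melatonin array lay below its partner without melatonin. With quantile normalization this held at 0 and 1 h only, and the arms were level at 3 h (13.97 in both) and 5 h (14.09 in both). The change at 5 h was 0.42 ± 0.08 (adjusted p = 0.00779), and with quantile normalization it was 0.16 (adjusted p = 0.193).

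Of the 4 structural beta subunits, which complete the ring without cutting, 3 rose at 5 h and 1 of 4 at 3 h. Psmb4 (beta7) changed by 0.48 ± 0.05 (SE, limma adjusted p = 0.00134), Psmb2 (beta4) by 0.42 ± 0.09 (adjusted p = 0.0134) and Psmb3 (beta3) by 0.29 ± 0.06 (adjusted p = 0.0132). The call of Psmb2 was lost without the no-melatonin array of 0 h (0.39, adjusted p = 0.0912) or the melatonin array of 5 h (0.37, adjusted p = 0.061). With quantile normalization Psmb4 changed by 0.14 (adjusted p = 0.0478) and Psmb3 by -0.0008. Psmb1 (beta6) changed by 0.18 and did not pass the test (adjusted p = 0.0846).

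Most genes of the 19S regulatory particle rose. With 75th percentile scaling all 17 were above their 0 h level at 3 and 5 h in both arms, 16 of 17 rose at 5 h, and the median change at 5 h was 0.54. With quantile normalization 12 of 17 were above their 0 h level at both times in both arms, 10 of 17 rose at 5 h, and the median was 0.29. Its base holds 6 ATPases that unfold the substrate, and 5 of these rose at 5 h (3 with quantile normalization). Psmc6 (Rpt4) had scaled log2 levels of 4.92, 4.99, 5.39 and 5.66 with melatonin and 4.93, 5.05, 5.51 and 5.71 without. Its 2 arms lay close together at every time on this scaling, while with quantile normalization the melatonin arm was higher at every time. The change of Psmc6 at 5 h was 0.76 ± 0.05 (SE, limma adjusted p = 0.000497), and a separate probe of the gene gave 0.29. Psmc1 (Rpt2, which helps open the gate of the core) had levels of 6.40, 6.49, 6.87 and 7.07 with melatonin and 6.51, 6.64, 6.91 and 7.13 without, and changed by 0.65 ± 0.04 (adjusted p = 0.000437). Psmc2 (Rpt1) changed by 0.51, Psmc5 (Rpt6) by 0.51 and Psmc4 (Rpt3) by 0.49 (adjusted p = 0.00166, 0.00307 and 0.00672). With quantile normalization Psmc6 changed by 0.43, Psmc1 by 0.31 and Psmc5 by 0.25, all 3 still called, while Psmc2 changed by 0.20 (adjusted p = 0.071) and Psmc4 by 0.27 (adjusted p = 0.0576). Psmc3 (Rpt5) was the exception, at 0.22 (adjusted p = 0.0703) and -0.09 with quantile normalization.

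The base also holds Psmd1 (Rpn2) and Psmd2 (Rpn1), its large scaffolds, and Psmd4 (Rpn10), a ubiquitin receptor, and all 3 rose at 3 and 5 h. The changes at 5 h were 0.54 for Psmd1, 0.30 for Psmd2 and 0.36 for Psmd4. None of the 3 was called with quantile normalization, where the changes were 0.22 for Psmd1, -0.01 for Psmd2 and 0.04 for Psmd4. The call of Psmd2 at 5 h was also lost without the melatonin array of 0 h (0.27, adjusted p = 0.0581).

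The lid of the 19S particle, which removes the ubiquitin chain, rose in 8 of 8 genes at 5 h and in 7 of 8 at 3 h, with a median change of 0.67 at 5 h. With quantile normalization 7 of 8 rose at 5 h, with a median of 0.38. Psmd8 (Rpn12), one of its scaffold subunits, had scaled log2 levels of 3.35, 3.55, 4.03 and 4.44 with melatonin and 3.54, 3.86, 4.58 and 4.88 without. Levels were higher at each successive time in both arms, and the arrays of 3 and 5 h lay above those of 0 and 1 h. The change was 0.86 ± 0.10 at 3 h and 1.22 ± 0.10 at 5 h, or 2.32-fold (SE, limma adjusted p = 0.0028 and 0.000666), and 0.97 at 5 h with quantile normalization. The Psmd8 probe spans chr7:29961170-29962121 (mm9), crossing an intron.

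Psmd12 (Rpn5), another lid scaffold, had levels of 4.44, 4.53, 5.08 and 5.34 with melatonin and 4.77, 5.02, 5.43 and 5.56 without. Its change at 5 h was 0.84 ± 0.08 (SE, limma adjusted p = 0.000873). Psmd11 (Rpn6), which clamps lid, base and core together, had levels of 2.28, 2.36, 2.92 and 3.19 with melatonin and 2.51, 2.63, 3.00 and 3.27 without. Its arrays of 3 and 5 h lay above those of 0 and 1 h across the arms, and its change at 5 h was 0.84 ± 0.09 (adjusted p = 0.00128). Psmd3 (Rpn3) changed by 0.72 ± 0.04 at 5 h, with the smallest adjusted p of the members (0.000376). Psmd14 (Rpn11), the enzyme that cuts ubiquitin off, changed by 0.63, Psmd6 (Rpn7) by 0.60 and Psmd7 (Rpn8, the partner of Psmd14) by 0.52. Separate Psmd14 probes gave 0.82 and 0.18 at 5 h, the latter well above background on 6 arrays. With the mean over probes Psmd14 kept its call at 5 h but not at 3 h (0.20, limma adjusted p = 0.225). With quantile normalization the changes of these 6 at 5 h were 0.55 for Psmd12, 0.68 for Psmd11, 0.40 for Psmd3, 0.37 for Psmd14, 0.29 for Psmd6 and 0.33 for Psmd7, all still called. Psmd13 (Rpn9) changed by 0.29 (adjusted p = 0.0264), was not called with quantile normalization (0.02, adjusted p = 0.893), and lost its call without the no-melatonin array of 0 h or the melatonin array of 0 or 5 h.

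**Figure D3:**
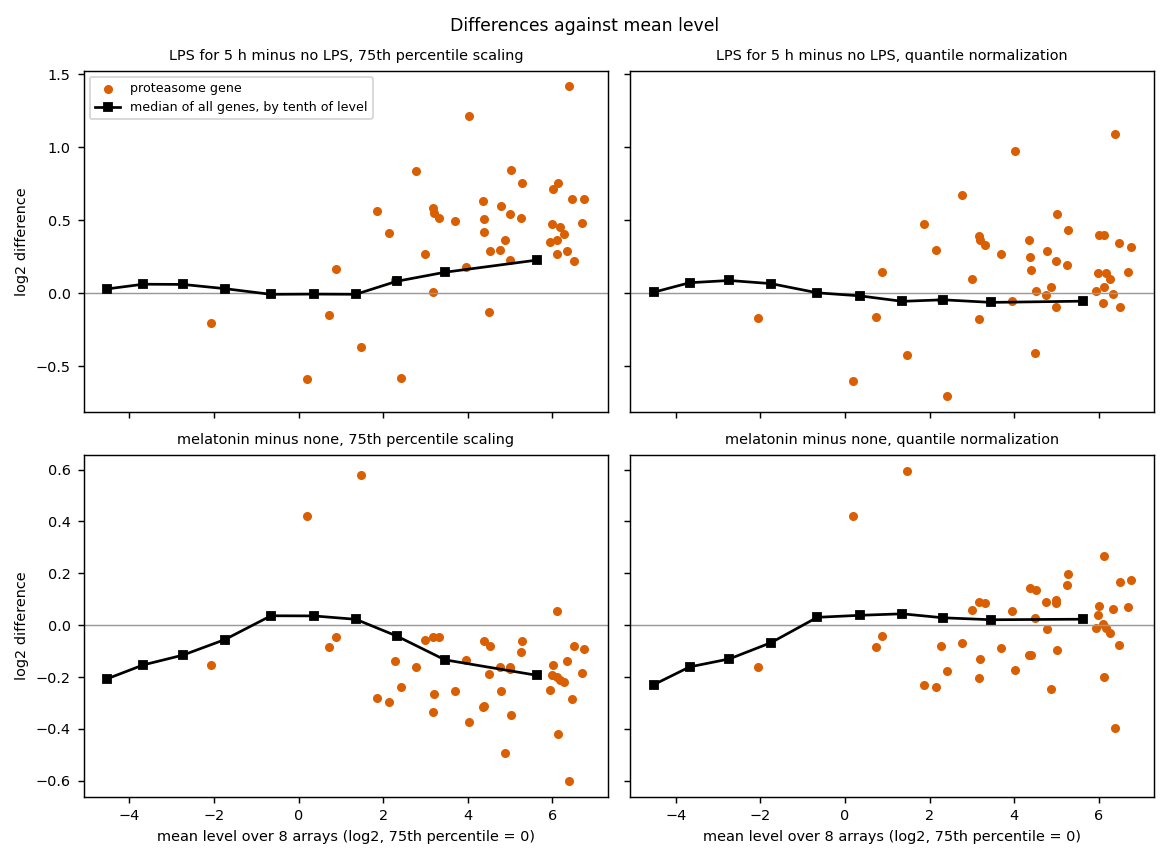
Log2 differences of the 45 proteasome genes (points) after 5 h of LPS (upper row) and with melatonin (lower row) against mean scaled log2 level, with 75th percentile scaling on the left and quantile normalization on the right, and the medians of all genes (black squares) in bins of level that hold 10% of genes each. Of the 45 genes, 35 lie in the brightest 20%, the last 2 bins, where the medians of all genes for 5 h of LPS were 0.15 and 0.23, and with quantile normalization those medians were -0.06 and -0.05.

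Among the proteins that cap the core in place of the 19S particle, the PA28 subunits rose and PA200 did not pass the test. Psme2b, a near copy of the PA28beta gene Psme2, had scaled log2 levels of 5.67, 5.70, 5.98 and 6.32 with melatonin and 5.98, 6.07, 6.46 and 6.84 without. Its probes also list the accession of Psme2, so the copies cannot be told apart. The change at 5 h was 0.76 ± 0.06 (SE, limma adjusted p = 0.000742), and 0.40 with quantile normalization. Psme1 (PA28alpha) had levels of 4.55, 4.57, 4.57 and 4.82 with melatonin and 4.93, 4.95, 5.22 and 5.39 without. All 4 melatonin arrays lay below all 4 arrays without melatonin. Its change at 5 h was 0.37 ± 0.09 (adjusted p = 0.0177), but 0.05 with quantile normalization (adjusted p = 0.592), and the call was lost without the no-melatonin array of 0 h (0.29, adjusted p = 0.122) or 5 h (0.32, adjusted p = 0.103).

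Psme3 (PA28gamma, the nuclear form) had levels of 1.56, 1.70, 1.77 and 1.87 with melatonin and 1.60, 1.76, 2.24 and 2.42 without. The arms lay together at 0 and 1 h, and the arm without melatonin was higher at 3 and 5 h. The fitted change at 5 h was 0.56 ± 0.15 (SE, limma adjusted p = 0.0296), and it was not called without the no-melatonin array of 0 h (0.41, adjusted p = 0.179) or 5 h (0.39, adjusted p = 0.164). Psme4 (PA200) had levels between 3.1 and 3.26 on all arrays and a change of 0.01 at 5 h (adjusted p = 0.92). Separate Psme4 probes gave -0.19 and 0.54 at 5 h, the latter well above background on 4 arrays. At 3 h Psme4 fell with quantile normalization (-0.24, adjusted p = 0.0468) and in the deposited table (-0.24, adjusted p = 0.0442).

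Psmf1, the PI31 protein named as a proteasome inhibitor, went the other way. Its levels were 0.73, 0.37, 0.42 and 0.11 with melatonin and 0.29, -0.05, -0.02 and -0.27 without. In each arm the 0 h array was highest and the 5 h array lowest. The change was -0.31 ± 0.09 at 3 h and -0.59 ± 0.09 at 5 h (SE, limma adjusted p = 0.0385 and 0.00372). A separate Psmf1 probe changed by 0.24 at 5 h, and with the mean over probes the change was -0.17 (adjusted p = 0.16), so the fall rests on 1 of its probes. Psmc3ip, the recombination cofactor, also fell at 5 h (-0.58 ± 0.10, adjusted p = 0.00608).

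Of 7 assembly chaperones, 1 rose and 0 fell at 5 h, where 24.9% of all genes rose. Of the other 38 members 32 rose, and the difference between the groups was not tested. This contrast depended on the scaling. With quantile normalization 19 of all 45 members rose at 5 h, against 33 of 45 on the scaled log2 levels. Psmd10 was the only chaperone to rise with quantile normalization. On the scaled log2 levels none of the 4 core chaperones was called at any LPS time, and 1 of them, Psmg3, had an unadjusted p under 0.05 at 5 h. With quantile normalization 1 of the 4, Psmg1, fell at 3 h (-0.34, limma adjusted p = 0.0161) and 5 h (-0.41, adjusted p = 0.00675). It also fell in the deposited table (-0.34 and -0.40, adjusted p = 0.0145 and 0.00661). Psmg1 and Psmg2, which form a pair that builds the alpha ring, changed by -0.13 and -0.15 at 5 h (limma adjusted p = 0.207 and 0.406). Psmg3 and Psmg4, the pair that acts beside them, changed by 0.27 and 0.09 (adjusted p = 0.0758 and 0.455). Separate probes of Psmg2 and of Psmg3 gave changes of opposite sign at 5 h.

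Of the 3 chaperones of the 19S base, Psmd10 (gankyrin) rose. Its scaled log2 levels were 2.83, 2.83, 3.06 and 3.31 with melatonin and 2.98, 3.17, 3.56 and 3.67 without, and the change at 5 h was 0.58 ± 0.10 (SE, limma adjusted p = 0.00634), and 0.39 with quantile normalization. Psmd9 (p27) changed by 0.17 at 5 h (adjusted p = 0.275). Psmd5 (S5b) had levels of 1.93, 1.71, 1.62 and 1.78 with melatonin and 1.65, 1.38, 0.63 and 1.06 without. The array of 3 h without melatonin was the lowest, and the spread over time was narrower with melatonin. Psmd5 fell at 3 h (-0.67 ± 0.19, adjusted p = 0.0397), but was not called without that array (-0.40, adjusted p = 0.211) or at 5 h (-0.37, adjusted p = 0.161).

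**Figure D4:**
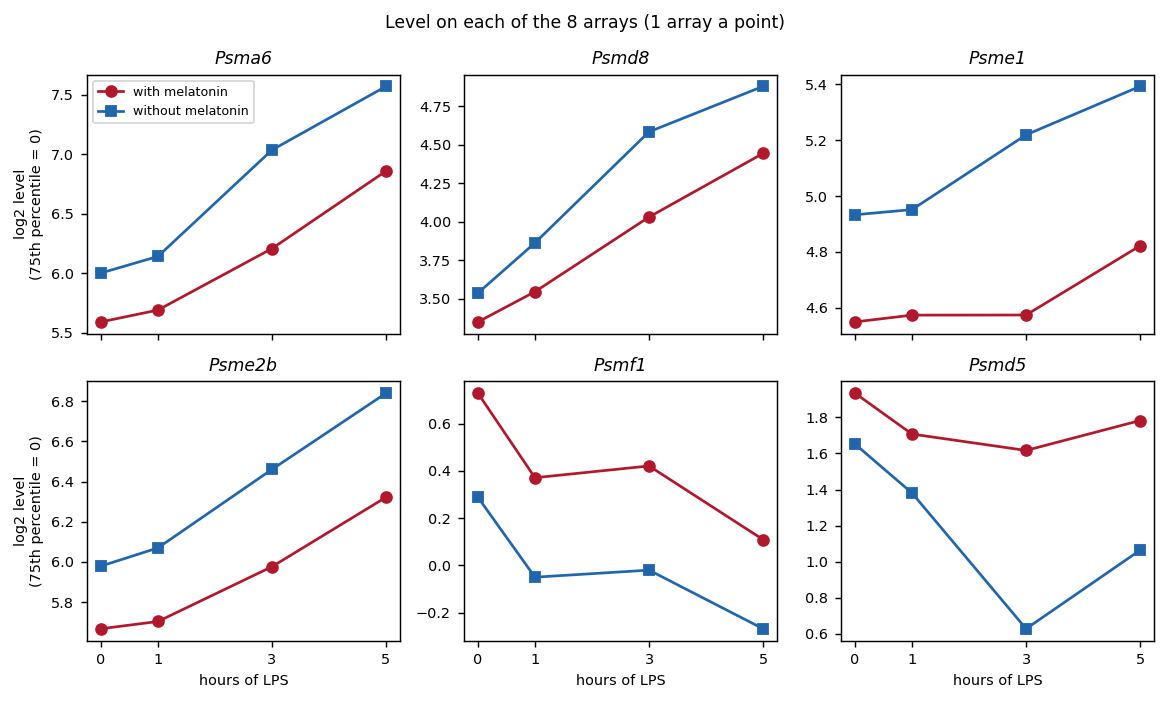
Scaled log2 levels of Psma6, Psmd8, Psme1, Psme2b, Psmf1 and Psmd5 on each of the 8 arrays over the hours of LPS, melatonin arm and arm without melatonin, 1 point per array. The first 4 genes lie lower in the melatonin arm at every time and Psmf1 and Psmd5 lie higher, and all 6 melatonin differences were called in the same direction with quantile normalization.

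In the melatonin arm most proteasome genes were lower with 75th percentile scaling, whereas 22 of 45 were higher with quantile normalization. Over the 4 matched times 25 members fell and 2 rose, where 40.6% of all genes were called (25.3% fell and 15.3% rose). The median difference, melatonin minus none, was -0.17 for the members and -0.10 for all genes (log2). With quantile normalization 6 fell and 5 rose, where 36.1% of all genes were called (17.1% fell and 19% rose), and the median of the members was -0.01. In the authors' deposited table, fitted in the same way, 6 fell and 6 rose, where 35.9% were called. The count of falls was 13 without either 1 h array and 15 without either 3 h array, and 1 member rose without any 1 of the 3 h and 5 h arrays. By time, the median difference of the members was -0.21 at 0 h, -0.18 at 1 h, -0.19 at 3 h and -0.10 at 5 h, each 1 array against 1 and with no test.

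Lower levels at all 4 times were seen in 32 of 45 members with 75th percentile scaling, where 36.7% of all genes were lower at all 4, and in 9 of 45 with quantile normalization, where 28.7% were. Higher levels at all 4 times were seen in 3 members, Psmd4, Psmd5 and Psmf1, where 22.5% of all genes were higher at all 4, and in 11 with quantile normalization, where 27.8% were. By particle, 7 of 8 alpha ring genes, 3 of 4 structural and 3 of 3 catalytic beta genes, 5 of 8 lid genes and 1 of 6 base ATPases fell. With quantile normalization these counts were 1, 1, 0, 1 and 0, and 2 of the ATPases, Psmc1 and Psmc6, rose.

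A few members differed between the arms under every scaling. Psma6, whose levels are given above, fell by 0.60 ± 0.08 with melatonin (SE, limma adjusted p = 0.00462) and was 0.40 lower with quantile normalization. Psme1 fell by 0.49 ± 0.06 (adjusted p = 0.00419) and Psme2b by 0.42 ± 0.05 (adjusted p = 0.00345), the PA28 pair that activates the core for peptide production. With quantile normalization these 2 were 0.24 and 0.20 lower. Psmd8 fell by 0.37 ± 0.07 (adjusted p = 0.0115), or by 0.17 with quantile normalization. Psmf1 was higher by 0.42 ± 0.06 (adjusted p = 0.00587), and its separate probe gave 0.41. These 5 kept their call and direction under all 16 alternatives.

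Psmd10 and Psmb2 fell by 0.34 and 0.30 (limma adjusted p = 0.0157 and 0.0165), and Psmd5 rose by 0.58 ± 0.13 (SE, adjusted p = 0.02). These 3 were called in the same direction with quantile normalization and in the deposited table. Single arrays decided these calls: Psmb2 lost its call without any 1 of the arrays of 1 and 3 h, Psmd5 without any 1 of those of 3 and 5 h and Psmd10 without any 1 of those of 1, 3 and 5 h, with Psmd5 at 0.44 (adjusted p = 0.0571) without the no-melatonin array of 3 h. Psmd12 fell by 0.35 ± 0.05 (adjusted p = 0.00693), but by 0.10 with quantile normalization (adjusted p = 0.252). Psmb5 fell by 0.31 (adjusted p = 0.00924), or by 0.12 with quantile normalization (adjusted p = 0.186). Psmc6, at -0.06 (adjusted p = 0.233), was 0.20 higher with quantile normalization (adjusted p = 0.00978). Of the core chaperones, Psmg1 fell by 0.19 ± 0.05 (adjusted p = 0.0328), and was 0.03 higher with quantile normalization.

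The arms were compared for their change after LPS, although no array repeats a condition. The median change of the members at 5 h was 0.41 with melatonin and 0.41 without, and at 3 h it was 0.29 and 0.28. By class at 5 h, the median was 0.61 and 0.49 for the 19S particle, 0.41 and 0.41 for the 20S core, 0.27 and 0.46 for the activators and inhibitor, and 0.21 and -0.03 for the 7 assembly chaperones, in the melatonin arm and the arm without. The sign of the change was the same in both arms for 30 of 45 members at 1 h, 45 of 45 at 3 h and 41 of 45 at 5 h, against 72.6%, 79.3% and 81.1% of all genes. A separate fit added 1 term for the LPS change differing between arms and kept 2 residual degrees of freedom. For this melatonin by LPS term limma called 0 of 45 members, and 0 had an unadjusted p under 0.05. Among 20078 genes tested the term was called for 0 (0% of all genes), and 754 had an unadjusted p under 0.05. The widest fitted terms were 0.40 ± 0.28 for Psmd5 and -0.31 ± 0.24 for Psme3 (SE, adjusted p = 0.908 for both). With so few degrees of freedom a missed threshold does not show that the arms responded alike.

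Genes around the proteasome moved in part with it. Of the interferon-inducible catalytic subunits, Psmb10 (beta2i) rose by 0.32 at 5 h (limma adjusted p = 0.0172; 0.01 with quantile normalization) and Psmb9 (beta1i) fell by 0.48 (adjusted p = 0.0243). Psmb8 (beta5i), with levels of 3.07, 3.08, 2.93 and 3.27 with melatonin and 3.58, 3.50, 3.75 and 3.75 without, was not called for LPS. All 4 melatonin arrays of Psmb8 lay below all 4 without melatonin. With melatonin Psmb8 fell by 0.56 (adjusted p = 0.00571) and Psmb10 by 0.59 (adjusted p = 0.00257), and both calls held with quantile normalization.

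Among 15 measured names for other subunits, chaperones and proteasome-bound proteins, 9 rose and 0 fell at 5 h (24.9% and 19.4% of all genes), and 4 rose and 2 fell with quantile normalization (17.9% and 23.5%). Zfand5, a proteasome-activating zinc finger protein, changed by 1.42 ± 0.10 (SE, limma adjusted p = 0.000445). Adrm1 (Rpn13), a ubiquitin receptor of the 19S particle, changed by 0.72, and Usp14, a deubiquitinase bound to the particle, by 0.58. Their changes with quantile normalization were 0.40 and 0.26. Uchl5, the deubiquitinase that binds Adrm1, changed by 0.24 (-0.0001 with quantile normalization), and Pomp, the maturation factor of the core, by 0.38 (0.06 with quantile normalization). With melatonin 7 of the 15 fell and 0 rose (25.3% and 15.3% of all genes). The largest falls were those of Ipo9, the importin that carries proteasomes into the nucleus (-0.56), Uchl5 (-0.44) and AI314180 (-0.38). With quantile normalization 3 fell and 1 rose (17.1% and 19% of all genes). AI314180 is an older name of Ecpas, so the 15 names stand for 14 genes, and the probe named Ecpas gave -0.09 with melatonin (adjusted p = 0.405), so the fall rests on 1 of the probes.

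Of 15 genes for ubiquitin and its activating and conjugating enzymes, 10 rose and 1 fell at 5 h. Among all genes 24.9% rose and 19.4% fell. With quantile normalization 3 of the 15 rose and 1 fell, where 17.9% of all genes rose and 23.5% fell. Ube2d3 rose by 0.81, Ube2s by 0.69 and Ube2d2a by 0.64, and Ube2d1 fell by 0.82. These changes were 0.51, 0.38, 0.47 and -0.80 with quantile normalization. With melatonin 8 of the 15 fell and 2 rose (25.3% and 15.3% of all genes). With quantile normalization 2 fell and 4 rose (17.1% and 19% of all genes). Of 13 shuttle factors and p97 partners, which bring substrates to the proteasome, 7 rose and 2 fell at 5 h. With quantile normalization 4 rose and 3 fell, and the shares of all genes are those given above. Faf2 rose by 1.06, Ubqln1 by 0.95 and Rad23b by 0.78, while Ubqln2 fell by 0.92 and Ddi2 by 0.79. These changes were 0.96, 0.79, 0.53, -0.996 and -0.84 with quantile normalization. With melatonin 1 of the 13 fell and 0 rose, and 0 fell and 2 rose with quantile normalization, against the same shares of all genes as above.

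On the route that leads from NRF1 to the proteasome genes, 9 of 11 genes rose and 1 fell at 5 h. Among all genes 24.9% rose and 19.4% fell. With quantile normalization 6 of the 11 rose and 1 fell, where 17.9% of all genes rose and 23.5% fell. Nfe2l1, which encodes NRF1, had scaled log2 levels of 2.59, 2.71, 3.29 and 3.69 with melatonin and 2.47, 2.66, 2.99 and 3.54 without. The arrays of 3 and 5 h lay above those of 0 and 1 h, and melatonin arrays lay above their partners at every time. The change of Nfe2l1 at 5 h was 1.08 ± 0.09 (SE, limma adjusted p = 0.000634), and 0.90 with quantile normalization. Its fitted melatonin difference was 0.15 and not called, and 0.265 with quantile normalization (adjusted p = 0.0351). Maff and Mafk, small Maf proteins that pair with NRF factors, rose by 4.48 and 1.02. The Maff probe was not well above background on the melatonin array of 0 h, so its differences carry the signal measured there at face value. Nfe2l2 (NRF2) rose by 0.42 (0.26 with quantile normalization, adjusted p = 0.129). Ddi2, the protease that cleaves NRF1 into its active form, fell by 0.79. With melatonin 2 of the 11 fell, Maff (-1.90) and Nfe2l3 (-0.41), and Ngly1 rose (0.48), where 25.3% of all genes fell and 15.3% rose. With quantile normalization 2 of the 11 fell and 5 rose, where 17.1% of all genes fell and 19% rose. Ddi2 and Vcp stand in both of the last lists.

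Psma6 lies next to Nfkbia, the gene for an NF-kB inhibitor, in the RefSeq order, a neighbour looked up after its values were seen. Nfkbia rose by 3.22 ± 0.06 at 5 h (SE, limma adjusted p = 1.32e-05), and Prorp on the other side of Psma6 rose by 0.48 (adjusted p = 0.0186). For Psmd8, looked up in the same way, the measured neighbour Ggn was not called (0.19 at 5 h, adjusted p = 0.518). Whether position bears on the change of either gene was not tested.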

How the data were processed

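Total RNA of 8 cultures was labelled with Cy3 and read on 1 array each. Per the file headers, the authors scanned design 074809 (probe coordinates on mm9) with Agilent Feature Extraction 12.0.3.1, which gave background-subtracted, detrended processed intensities per spot and flags for spots above background or saturated. The authors also deposited a log2 table, quantile normalized as its values show; the sources used here say nothing more of how it was made. The array flags have no scale and are listed under other values.

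Here, log2 processed signal minus the array's 75th percentile over all non-control spots was taken, outlier spots were left out, and each gene took the probe with the highest mean (above background on at least 2 arrays). limma 3.58.1 (R 4.3.3) fitted LPS time and melatonin with an intensity trend, Benjamini-Hochberg over all genes, after tests on simulated data. Each condition had 1 array, so the number of arrays limits the precision. Alternatives were quantile normalization, the deposited table, normexp background (offset 50), no filter or a filter on all 8 arrays, the mean over probes, no trend, each array left out, and median scaling. All members could be named with values, and from each list of other genes up to 3 called genes by size of change, plus Pomp, Nfe2l1, Nfe2l2, Adrm1, Usp14 and Uchl5. Members and lists were chosen with earlier results of these data known. Promoters were searched with Python 3.11.15 in RefSeq windows.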

Additional observations from a re-analysis of the deposited data

How the results depend on the processing

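The fit already matches the arms by LPS time. No paired analysis was possible beyond that because each condition has 1 array, and slide as a block was not run because all arrays lay on 1 slide. The median scaling was chosen after seeing the data. No value of the melatonin by LPS term could be had without either 0 h array. Under 16 alternatives, 18 of the 35 calls at 5 h of LPS, 7 of 29 at 3 h, 5 of 27 for melatonin and 0 of 19 for the step from 1 to 3 h held throughout, and the causes were not tested. With quantile normalization and in the deposited table, rises numbered 8 and 9 at 3 h, 19 and 21 at 5 h, 4 and 4 in the step and 5 and 6 with melatonin, and falls numbered 5 and 5 at 3 h, 1 and 1 in the step and 6 and 6 with melatonin. Without the filter, 1 fell at 3 h and 11 rose in the step. Without the trend, 1 fell at 3 h, 3 rose in the step and 16 fell with melatonin. With the mean over probes 1 fell at 5 h. Leaving out 1 array gave 10 to 27 rises and 0 to 2 falls at 3 h, 28 to 32 and 2 at 5 h, 0 to 18 rises in the step, and 1 to 2 rises and 13 to 23 falls with melatonin. The member median with quantile normalization and in the deposited table was -0.0285 and -0.0231 at 1 h, 0.0852 and 0.104 at 3 h, 0.144 and 0.186 at 5 h, 0.0895 and 0.102 from 1 to 3 h, 0.0693 and 0.0827 from 3 to 5 h, -0.0103 and -0.0024 with melatonin, and 0.0728 and 0.0753 for the melatonin by LPS term. With normexp it was 0.032 at 1 h, 0.276 at 3 h, 0.398 at 5 h and 0.11 from 3 to 5 h. At 1, 3 and 5 h and from 1 to 3 h it was 0.0536, 0.321, 0.485 and 0.219 with the mean over probes, and 0.0425, 0.359, 0.508 and 0.314 with median scaling. Leaving out 1 array gave medians of 0.0201 to 0.0403 at 1 h, 0.28 to 0.307 at 3 h, 0.41 to 0.44 at 5 h, 0.234 to 0.269 from 1 to 3 h, 0.112 to 0.154 from 3 to 5 h, -0.19 to -0.155 with melatonin and -0.002 to 0.0439 for the term. With quantile normalization and in the deposited table the sign was opposite for 10 and 9 of 45 members at 3 h, 8 and 7 at 5 h and 19 and 18 with melatonin. Among those called under one of the scalings compared, it was opposite (values in that order) at 3 h for Psma7 (-0.0798, -0.0501), Psma5 (-0.0887, -0.0946) and Psmd2 (-0.0373, -0.0448), and at 5 h for Psma7 (-0.067, -0.022), Psma1 (-0.0895, -0.091) and Psmd2 (-0.0075, -0.0123), with Psmb3 at -0.0008 under quantile normalization only. With melatonin it was opposite for Psmc1 (0.1745, 0.1134), Psmb4 (0.0693, 0.0132), Psmb3 (0.0641, 0.0481), Psmd3 (0.0725, 0.0813), Psma4 (0.0384, 0.0448), Psmc6 (0.1958, 0.1979), Psma1 (0.0872, 0.1116), Psmd2 (0.0887, 0.1018), Psmg1 (0.0261, 0.0314) and Psmc2 (0.1553, 0.1631), the last called in the deposited table only, with Psma7 (0.0064) under quantile normalization only.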
